A study of Homo sapiens with 32 samples.

Results

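The genes described here are the ligands and receptors through which epidermal growth factor (EGF) signalling reaches epithelial cells. They are 6 ligands (AREG, EREG, HBEGF, TGFA, BTC and EPGN), 3 receptors (EGFR, ERBB2 and ERBB3) and ERRFI1, which encodes a cytoplasmic inhibitor of the receptors. They were chosen by gene symbol, and all 10 have a row among the 19345 genes of the deposited expression table. The cells were EPC2, an hTERT-immortalised line of human esophageal epithelium, and every library is labelled WT for genotype. The table covers 32 RNA sequencing libraries in 4 groups. Monolayer cells were taken at D0, before seeding (n = 10). Spheroids grown in Matrigel, in medium with 0.6 mM CaCl2, were collected untreated on D3 (n = 9) and on D11 (n = 7). The last group held D11 spheroids that had received the cytokine IL-13 at 20 ng/ml from D3 onward (n = 6). The labels place the libraries in 2 independent experiments, called batches below. Batch 1 held 5 monolayer, 4 D3, 4 untreated D11 and 5 IL-13 libraries, and batch 2 held 5, 5, 3 and 1. The 6 IL-13 columns could not be tied to single labelled samples, so the batch of each of them is not known. Whether EGF was added to the medium is not given in the sources used here.

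The ligands are made as precursors in the cell membrane and are released by metalloproteases of the ADAM family, of which ADAM17 is the best known. AREG, TGFA and EPGN bind EGFR, whereas HBEGF, EREG and BTC bind both EGFR and ERBB4. ERBB2 has no ligand of its own and ERBB3 has an impaired kinase, so both act as partners in receptor dimers. Activated receptors signal through RAS and ERK, and ERK in turn raises transcription of several of the ligands, of ERRFI1 and of the phosphatases and Sprouty proteins that restrain the pathway. In squamous epithelium EGFR is known as a driver of proliferation in the basal layer, and EGFR ligands act on the same and on neighbouring cells.

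A stretch of chromosome 4 holds 4 of the ligand genes, and the promoters of 3 of them are shown because AREG and EREG fell on D3 while EPGN rose. EPGN, EREG, AREG and BTC lay within 486.2 kb, at hg38 positions 74308473 to 74794686 in GENCODE 29, and the first 3 are transcribed from the plus strand. Of the 10 genes, 9 matched a RefSeq promoter entry (GRCh38.p14), all but ERBB3. The 250 bases before each transcription start are printed 5′ to 3′, with matches to the motifs that were searched in capitals. AREG is at chr4:74444886-74445135, EREG at chr4:74364895-74365144 and EPGN at chr4:74308220-74308469, all on the plus strand.
AREG: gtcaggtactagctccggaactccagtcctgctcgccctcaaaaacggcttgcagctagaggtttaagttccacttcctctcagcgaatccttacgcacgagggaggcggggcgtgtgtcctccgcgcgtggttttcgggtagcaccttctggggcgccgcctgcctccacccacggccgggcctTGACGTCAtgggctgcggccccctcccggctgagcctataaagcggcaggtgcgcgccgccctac
EREG: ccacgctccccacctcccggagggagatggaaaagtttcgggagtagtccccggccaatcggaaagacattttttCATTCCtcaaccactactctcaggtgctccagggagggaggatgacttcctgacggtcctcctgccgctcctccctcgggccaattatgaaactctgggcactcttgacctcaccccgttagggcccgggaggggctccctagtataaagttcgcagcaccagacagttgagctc
EPGN: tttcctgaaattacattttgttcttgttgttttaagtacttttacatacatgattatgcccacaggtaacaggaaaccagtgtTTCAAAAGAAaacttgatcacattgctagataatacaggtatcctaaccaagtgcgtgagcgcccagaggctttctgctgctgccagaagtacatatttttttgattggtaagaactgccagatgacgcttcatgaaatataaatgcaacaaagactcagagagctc
The AREG match is TGACGTCA, the cAMP response element, from position -65 to -58 relative to the start. The EREG match is CATTCC, the core bound by TEAD factors, from -175 to -170. The EPGN match is the palindrome bound by STAT factors, TTC and GAA with 4 bases between, from -167 to -158. Both strands were searched over 250 bases before and 50 after the start. TGACGTCA was found in 1.85% of the 35116 promoters of that length, CATTCC in 14% and the STAT palindrome in 6.44%. TGANTCA, the AP-1 element, was found in 7.71% and the CArG box in 1.29%, and neither was found in these 3 windows. A match describes the letters only, and no binding was measured.

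Values are in TPM, which are transcript abundances scaled to gene length and to a fixed sum of all genes in a library (999959 to 999990 here). The depth behind each library is unknown, because TPM keeps none. Genes encoded in the mitochondrial genome made up 44.78 to 50.12% of the sum in the monolayer, 39.14 to 57.1% on D3, 14.78 to 27.94% in untreated D11 and 13.17 to 25.56% in IL-13 spheroids, so all other genes had a larger share of the sum on D11. By the highest library of each group, all squamous basal markers reached 1 TPM. They summed to 19190 to 23970 TPM in the monolayer and 56530 to 83900 on D3. The sums were 46120 to 70540 TPM in untreated D11 and 48870 to 73970 with IL-13. Suprabasal markers, which rise with squamous differentiation, reached 1 TPM for 3 of 5 genes in the monolayer (KRT4 was at 0) and for 5 of 5 in each spheroid group. They summed to 3767 to 6969 TPM in the monolayer, 12120 to 28260 on D3, 59910 to 80870 in untreated D11 and 51680 to 90880 with IL-13. KRT6A and KRT16 made up nearly all of each sum, and the other markers did not all follow it. By the highest library of each group, KRT4 and KRT13 were lower in untreated D11 than on D3, whereas IVL was higher. With IL-13, KRT4 and KRT13 were higher than in untreated D11, and IVL was lower. The part of the suprabasal markers in the changes below was not tested. Columnar markers summed to at most 0.7 TPM, fibroblast and endothelial markers to at most 0.3 TPM, and the immune marker PTPRC reached at most 0.1 TPM, whereas CD68 made up nearly all of an immune marker sum of 110.5 to 480.2 TPM. D3 libraries 4 and 7 stood apart from their labelled batch in an earlier analysis of these data. With both removed, 9, 4, 9 and 2 of the genes passed the test in the 4 comparisons below, the same numbers as with them. The shares of all tested genes that passed were 80.2%, 68.1%, 84.8% and 48.9% there. The genes whose change from D3 to D11 differed between batches went from 4 to 7 of 9 without them, where the share of all genes went from 23.8% to 39.5%. In RNA from whole spheroids, fewer cells of a type and less RNA per cell cannot be told apart.

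By group means over both batches, most of the family was highest in the monolayer, and ERBB3 and EPGN were lowest there. AREG, the ligand amphiregulin, was the most abundant ligand, and with BTC at most 0.3 TPM the ligands summed to 446 ± 235 TPM in the monolayer (SD, n = 10). They summed to 112 ± 39.9 TPM on D3 (SD, n = 9), 168 ± 50.4 TPM in untreated D11 spheroids (SD, n = 7) and 171 ± 39.1 TPM with IL-13 (SD, n = 6). The monolayer mean pools separate levels, 209.3 to 242.2 TPM in batch 1 and 642.8 to 709.1 TPM in batch 2. Untreated D11 spheroids had 188.9 to 243.5 TPM in batch 1, which overlapped with the monolayer of that batch, and 106.3 to 126.0 TPM in batch 2. On D3 the means were 109.7 TPM in batch 1 and 114.2 TPM in batch 2. AREG made up 65.6% ± 1.84 of that sum in the monolayer, 70.6% ± 2.52 on D3, 72.8% ± 3.24 on D11 and 76.2% ± 2.96 with IL-13 (SD). HBEGF was 15.0% ± 5.14 of it in the monolayer and 7.92% ± 2.50 on D3 (SD). EPGN was 0.615% ± 0.26 in the monolayer and between 4.02 and 4.84% on average in the 3 spheroid groups.

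**Figure D1:**
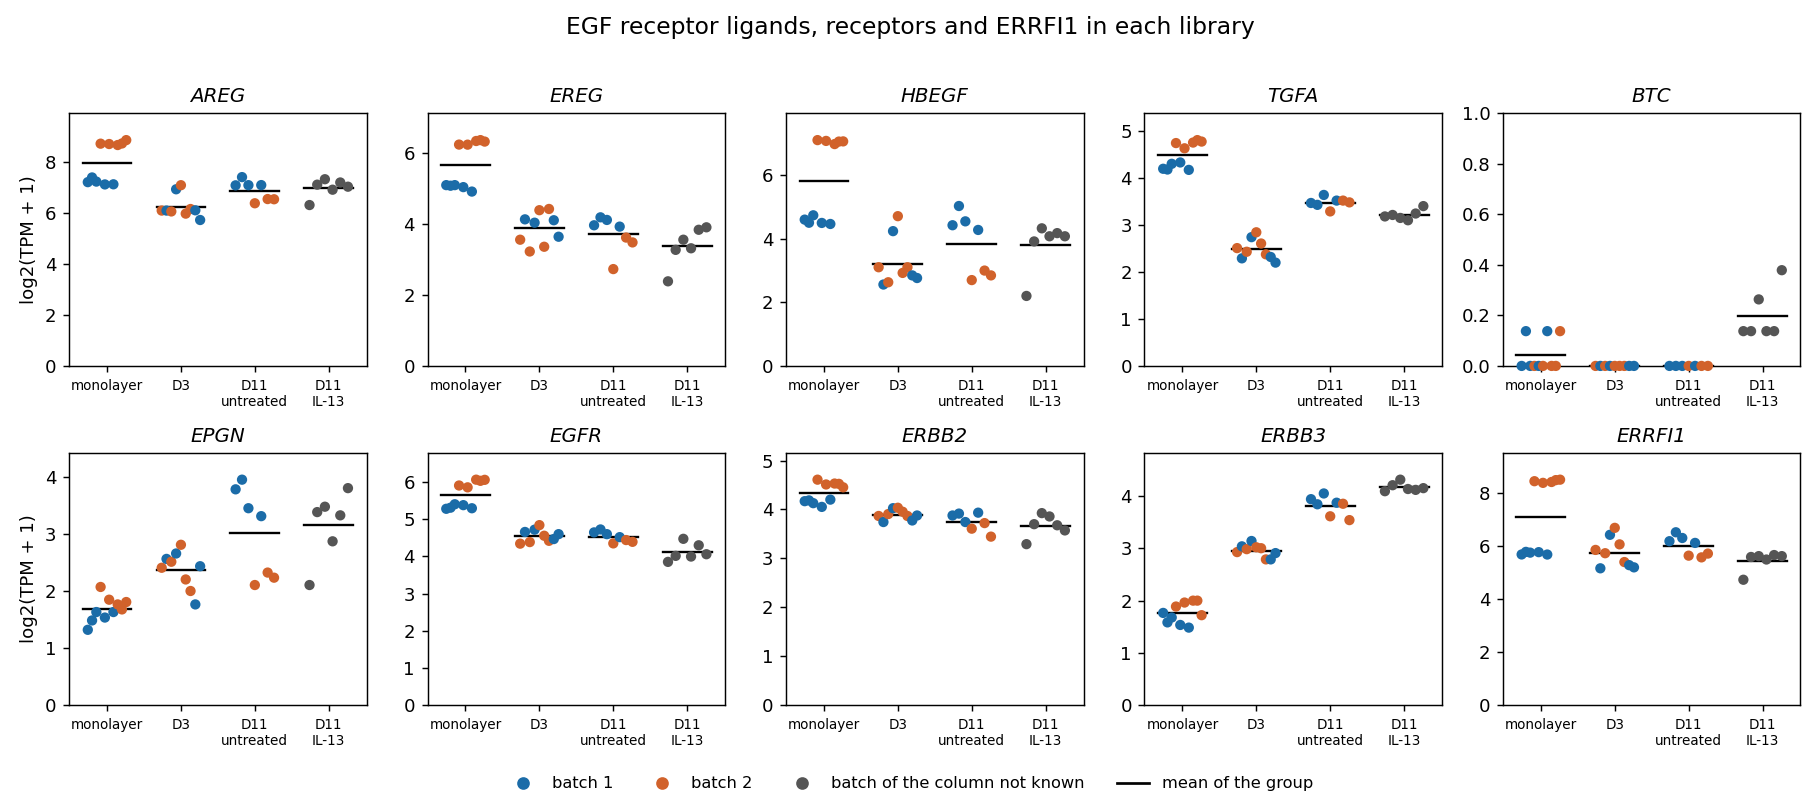
Level of each of the 10 genes in each of the 32 libraries, as log2(TPM + 1), with the 4 groups side by side and 1 point per library coloured by batch (the batch of the IL-13 columns is not known); black lines are the group means of the log2 values. The monolayer libraries of AREG, EREG, HBEGF and ERRFI1 fall into separate levels by batch, and ERRFI1 has 50.6 to 54.3 TPM in batch 1 and 334.6 to 363.7 TPM in batch 2.

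Changes were tested with limma on log2(TPM + 1) over the 12221 genes that reached 1 TPM in at least 6 libraries, with batch as a term and Benjamini-Hochberg adjustment over all of them (threshold 0.05). On this scale the change of low genes is understated. BTC did not pass the filter, so 9 of the 10 genes were tested. In D3 spheroids against the monolayer 2 rose and 7 fell, where 12.7% of all tested genes rose and 68.2% fell. In untreated D11 against D3 spheroids 4 rose, none fell and 5 did not pass, where 33.6% of all genes rose and 35.8% fell. Without adjustment, none fell at p under 0.05 either. With mitochondrial genes removed EREG, EGFR and ERBB2 fell, where 65.7% of all genes did. Relative to the median change of all tested genes there, they had -0.19, -0.08 and -0.19. In untreated D11 spheroids against the monolayer 2 rose and 7 fell, where 21% of all genes rose and 63.5% fell. With IL-13 against untreated D11 spheroids 1 rose and 1 fell, where 39.2% rose and 8.49% fell. The first 3 comparisons share libraries with each other, and the last shares the untreated D11 libraries.

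The median change of the 9 genes was -1.39 on the log2 scale in D3 against the monolayer, beside -0.44 over all tested genes. It was 0.62 in untreated D11 against D3 (all genes -0.02), -1.01 in untreated D11 against the monolayer (all genes -0.48) and -0.05 with IL-13 (all genes 0.19). The shift of all genes depended on the scaling. After median-of-ratios rescaling the all-gene median was -0.01 for D3 against the monolayer and the split of all genes went from 1556 higher and 8339 lower to 4061 and 4050. For untreated D11 against the monolayer the split went from 2561 and 7765 to 4902 and 4915, and for IL-13 from 4785 and 1037 to 2348 and 2521. With mitochondrial genes removed, the all-gene median of untreated D11 against D3 was -0.51, and the split went from 4102 and 4370 to 1663 and 8018. For several genes below, changes are therefore also given relative to the all-gene median.

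**Figure D2:**
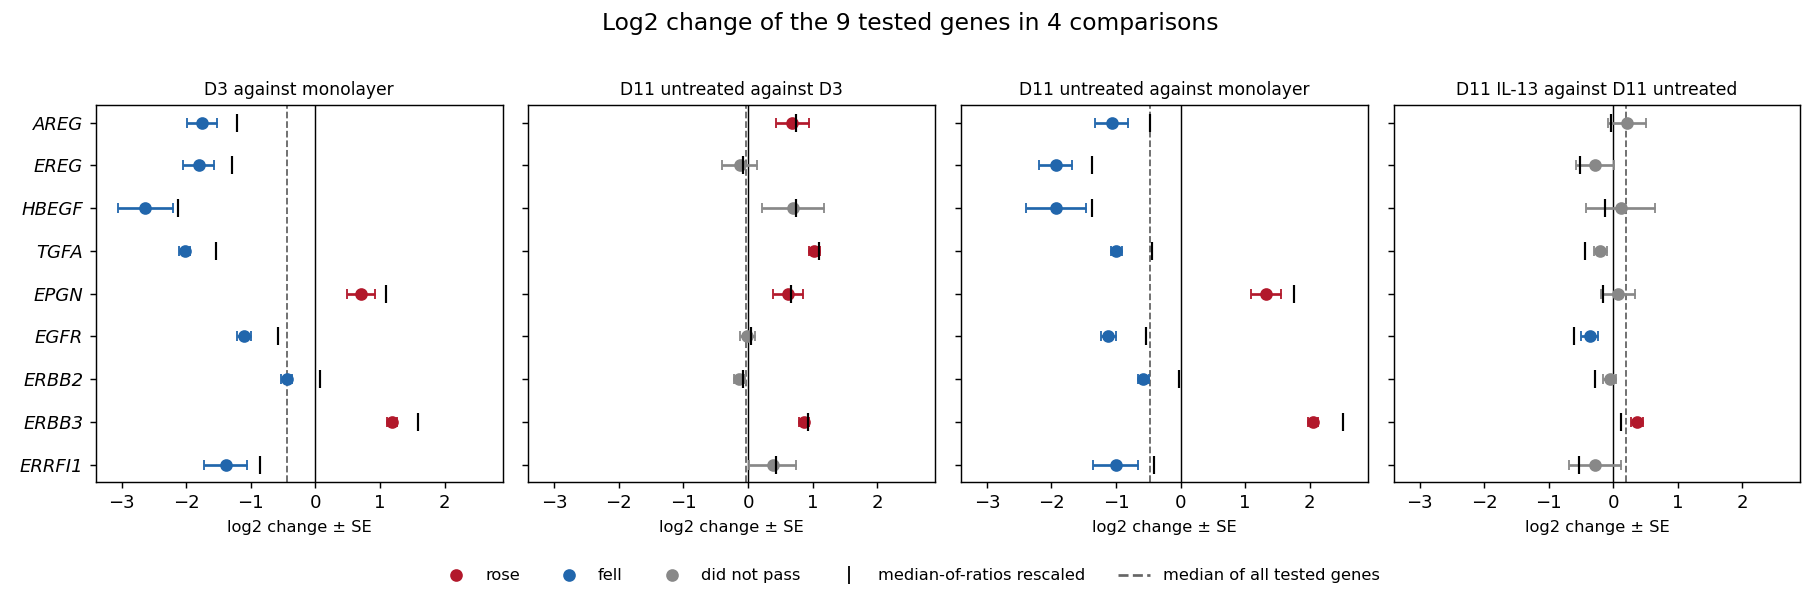
Log2 change (x axis) with its standard error for the 9 tested genes in the 4 comparisons; colours give the test, black ticks the change after median-of-ratios rescaling, and dashed lines the median change of all tested genes. ERBB3 lies right of 0 in all 4 panels, and ERBB2 moves to the other side of 0 in D3 against the monolayer when rescaled (-0.45 to 0.06).

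Among the ligands, TGFA fell and came back in part with the smallest spread. Its level ran from 17.1 to 27.1 TPM in the monolayer (median 21.55), from 3.6 to 6.2 TPM on D3 (median 4.4), from 8.8 to 11.5 TPM in untreated D11 spheroids (median 10.2) and from 7.6 to 9.6 TPM with IL-13 (median 8.2). Monolayer, untreated D11 and D3 libraries did not overlap, in that order from high to low. The log2 change was -2.03 ± 0.08 in D3 against the monolayer (SE; limma adjusted p = 6.3e-20) and 1.03 in untreated D11 against D3 (adjusted p = 1.5e-11). Relative to the all-gene median the rise from D3 to D11 was 1.05 with the deposited TPM and 1.05 with mitochondrial genes removed, although the latter change itself was 0.54. Within batches that rise was 1.13 in batch 1 and 0.88 in batch 2.

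AREG was lower on D3 than in the monolayer in every library. The monolayer libraries had 139.5 to 469.0 TPM (median 289.4) and the D3 libraries 52.3 to 136.6 TPM (median 67.9). Untreated D11 spheroids had 83.1 to 170.5 TPM (median 136.1) and IL-13 spheroids 79.1 to 160.9 TPM (median 134.8), so the D11 groups overlapped with D3, with each other and with the monolayer. The log2 change from monolayer to D3 was -1.76 ± 0.24 (SE; limma adjusted p = 7.4e-08), and it was -1.005 in batch 1 alone and -2.46 in batch 2 alone. From D3 to untreated D11 AREG rose by 0.69 ± 0.26 (SE; adjusted p = 0.020). That call was lost in batch 2 alone (0.21), with quantile normalization (0.43), with mitochondrial genes removed (0.09) and without untreated D11 library 2 (0.57, adjusted p = 0.057). Relative to the all-gene median the change was 0.71 with the deposited TPM and 0.61 with mitochondrial genes removed. In untreated D11 against the monolayer AREG fell by 1.07 (adjusted p = 2.9e-04), a call lost after median-of-ratios rescaling (-0.48, adjusted p = 0.058) and with library quality weights (-0.35, adjusted p = 0.073).

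EREG, which encodes epiregulin, was lower in every spheroid group than in the monolayer. It ran from 28.9 to 80.5 TPM in the monolayer (median 53.25), from 8.3 to 20.3 TPM on D3 (median 15.3), from 5.6 to 17.1 TPM in untreated D11 (median 14.1) and from 4.2 to 13.9 TPM with IL-13 (median 9.8). All monolayer libraries lay above all spheroid libraries, and the 3 spheroid groups overlapped. The log2 change was -1.81 ± 0.24 in D3 and -1.93 in untreated D11 against the monolayer (SE; limma adjusted p = 6.8e-08 and 5.1e-08), and -0.13 from D3 to untreated D11 (adjusted p = 0.68). That last change was a called rise with library quality weights (0.98, adjusted p = 0.0013) and a called fall with mitochondrial genes removed (-0.70, adjusted p = 0.035). Relative to the all-gene median the latter was -0.19. AREG, its neighbour on chromosome 4, had 0.69 in that last comparison, and the difference between the genes was not tested.

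HBEGF, the heparin-binding ligand, had the largest fall on D3 among the 9 genes over both batches, whereas in batch 1 alone TGFA fell more (-1.85). The monolayer had 21.1 to 136.6 TPM (median 75.45) and D3 spheroids 4.9 to 25.2 TPM (median 6.6). The log2 change was -2.63 ± 0.43 (SE; limma adjusted p = 2.3e-06), with -1.46 in batch 1 alone and -3.76 in batch 2 alone. D3 libraries 4 and 5 had 17.9 and 25.2 TPM while the other 7 had at most 7.6 TPM, and library 5 alone reached into the pooled range of the monolayer. Library 5 was in batch 2, whose monolayer had 125.2 to 136.6 TPM, and it overlapped only the batch 1 monolayer (21.1 to 25.7 TPM). Within each batch D3 and monolayer libraries did not overlap. Libraries 4 and 5 were also the highest on D3 in AREG (122.1 and 136.6 TPM) and in ERRFI1 (85.4 and 102.6 TPM). Untreated D11 spheroids had 5.5 to 31.7 TPM (median 18.4) and IL-13 spheroids 3.6 to 19.1 TPM (median 15.9). From D3 to untreated D11 the log2 change was 0.70 (adjusted p = 0.19), and with library quality weights HBEGF rose by 2.63 (adjusted p = 3.5e-06). It was 1.47 in batch 1 alone (adjusted p = 5.5e-04) and -0.45 in batch 2 alone. With D3 libraries 4 and 5 removed it was 1.07 (adjusted p = 0.048).

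EPGN, which encodes epigen, rose on D3, where its neighbours AREG and EREG fell. It had 1.5 to 3.2 TPM in the monolayer (median 2.15), 2.4 to 6.0 TPM on D3 (median 4.4), 3.3 to 14.4 TPM in untreated D11 (median 8.9) and 3.3 to 12.9 TPM with IL-13 (median 9.2). Every untreated D11 library was above every monolayer library, and neighbouring groups overlapped. The log2 change was 0.71 ± 0.21 in D3 against the monolayer (SE; limma adjusted p = 0.0032), 0.62 ± 0.23 from D3 to untreated D11 (SE; adjusted p = 0.020) and 1.32 in untreated D11 against the monolayer (adjusted p = 3.7e-06). The rise after D3 was 1.26 in batch 1 alone and -0.17 in batch 2 alone. That call was also lost with mitochondrial genes removed (0.12, although 0.64 relative to the all-gene median both with and without them) and without D3 library 8 (0.51) or untreated D11 library 1 (0.51) or 2 (0.48).

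BTC, betacellulin, was barely detected. It was listed at 0 in 7 monolayer libraries and at 0.1 TPM in the other 3, and at 0 in all 9 D3 and all 7 untreated D11 libraries. All 6 IL-13 libraries had 0.1 to 0.3 TPM. These are the lowest values that the table, with 1 decimal, can hold, and no test was made.

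**Figure D3:**
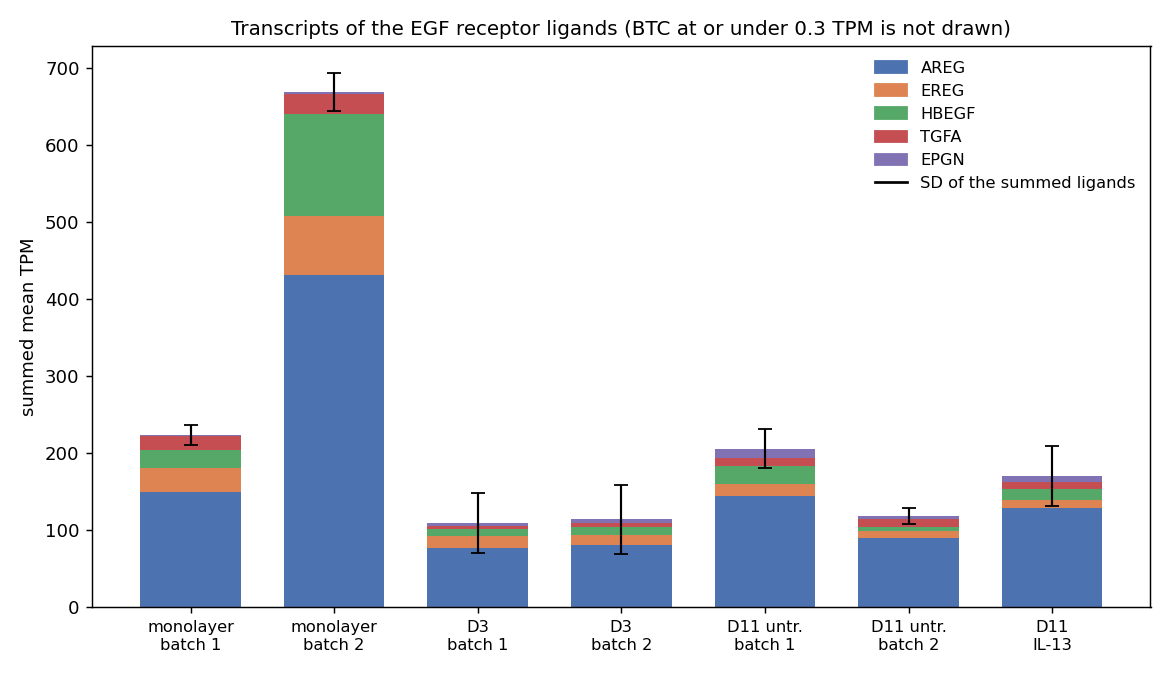
Mean TPM of the ligands stacked to their sum for each group and batch (7 bars; BTC is not drawn), with the SD of the summed ligands over libraries as error bars. AREG is the largest block in every bar, and monolayer batch 2 stands at 669 TPM against 224 TPM in monolayer batch 1.

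Among the receptors, ERBB3 rose at each step and the others did not. ERBB3, the kinase-impaired partner receptor, had 1.8 to 3.0 TPM in the monolayer (median 2.35), 5.9 to 7.8 TPM on D3 (median 6.9), 10.6 to 15.5 TPM in untreated D11 (median 13.4) and 16.0 to 18.8 TPM with IL-13 (median 16.6). The 4 groups did not overlap, and IL-13 spheroids were highest. The log2 changes were 1.19 ± 0.07 to D3 (SE; limma adjusted p = 2.7e-15), 0.86 from D3 to untreated D11 (adjusted p = 6.9e-11) and 2.05 from monolayer to untreated D11 (adjusted p = 1.1e-20). These 3 stayed positive and passed the test under each of the 3 other scalings and within each batch. The smallest was 0.34 from D3 to D11 with mitochondrial genes removed, and relative to the all-gene median that change was 0.85.

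EGFR, the receptor that binds all 6 ligands, was at its highest in the monolayer with 37.6 to 65.3 TPM (median 48.75). D3 spheroids had 19.2 to 27.5 TPM (median 22.4), untreated D11 spheroids 19.3 to 25.3 TPM (median 21.8) and IL-13 spheroids 13.4 to 21.1 TPM (median 15.35). All monolayer libraries lay above all spheroid libraries. The log2 change was -1.11 ± 0.11 to D3 (SE; limma adjusted p = 9.9e-11) and -0.58 after median-of-ratios rescaling. For the step from D3 to D11 it was -0.01 (adjusted p = 0.95). With mitochondrial genes removed EGFR fell in that comparison (-0.59, adjusted p = 6.4e-04), and relative to the all-gene median that change was -0.08. With library quality weights it rose (0.44, adjusted p = 0.0020).

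ERBB2, the receptor without a ligand, changed on D3 by about as much as the median of all genes. It had 15.6 to 23.4 TPM in the monolayer (median 19.15), 12.4 to 15.4 TPM on D3 (median 13.7), 9.9 to 14.3 TPM in untreated D11 (median 12.4) and 8.8 to 14.2 TPM with IL-13 (median 11.9). The log2 change of -0.45 ± 0.08 to D3 passed the test (SE; limma adjusted p = 1.2e-05), but relative to the all-gene median it was -0.01, and it became 0.06 after median-of-ratios rescaling and 0.03 after quantile normalization. For untreated D11 against the monolayer it was -0.58, and -0.02 after median-of-ratios rescaling (adjusted p = 0.79). ERBB2 overlaps PGAP3 and MIEN1 on the opposite strand, and whether reads were counted by strand is not given in the sources used here.

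With the batches pooled, no overlap between groups was found for 6 of the 9 genes in D3 against the monolayer. EREG, TGFA, AREG, EGFR and ERBB2 had all D3 libraries below all monolayer libraries, as had 39% of all tested genes, and ERBB3 had them all above, as had 5.29%. In untreated D11 against D3, TGFA and ERBB3 had all libraries above, as had 19.1% of all genes, and none was below, where 19% of all genes were. Against the monolayer, the shares over all genes were 13.4% above and 45.3% below in untreated D11, with EPGN and ERBB3 above and EREG, TGFA, EGFR and ERBB2 below.

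ERRFI1, the inhibitor also known as MIG6, differed more between the batches of the monolayer than any other of the 9 genes, by the ratio of their mean TPM. The monolayer had 50.6 to 363.7 TPM (median 194.5), D3 spheroids 35.0 to 102.6 TPM (median 52.4), untreated D11 spheroids 46.9 to 91.3 TPM (median 68.9) and IL-13 spheroids 25.7 to 49.9 TPM (median 47.95). Groups next to each other in level overlapped. The log2 change to D3 was -1.39 ± 0.33 (SE; limma adjusted p = 3.3e-04). It was -2.50 in batch 2 alone and -0.22 in batch 1 alone (adjusted p = 0.35). For untreated D11 against the monolayer it was -1.01 (adjusted p = 0.0099), with -2.80 in batch 2 alone and 0.55 in batch 1 alone (adjusted p = 0.027), so the direction differed between batches.

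The batches differed most in the monolayer. There, 8 of the 9 tested genes were higher in all batch 2 libraries than in all batch 1 libraries, as were 24.3% of all tested genes, and ERBB3 overlapped. Mean AREG was 150 TPM in batch 1 and 431 TPM in batch 2, HBEGF 22.7 and 132 TPM, EREG 31.8 and 77.0 TPM, and ERRFI1 52.5 and 350 TPM. On D3 the batches overlapped in all 9 genes, as they did in nearly all genes (0.0655% were higher throughout in batch 2 and 0.196% in batch 1). That overlap includes D3 libraries 4 and 7, which stood apart from their labelled batch. Without them ERRFI1 had 35.0 to 38.1 TPM in batch 1 and 52.4 to 102.6 TPM in batch 2. TGFA had 3.6 to 4.0 and 4.4 to 6.2 TPM, and the other tested members still overlapped. The shares of all genes without these libraries were not computed. In untreated D11 spheroids 7 of the 9 were higher in all batch 1 libraries, as were 39.4% of all genes, and TGFA and ERBB3 overlapped. HBEGF had a mean of 23.2 TPM in batch 1 and 6.23 TPM in batch 2 there, and EPGN 11.5 and 3.67 TPM.

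The change itself was compared between batches with a group by batch interaction in limma, without the IL-13 libraries. From monolayer to D3, 8 of the 9 genes differed between batches, all but EPGN, where 45.2% of all genes did. The difference, batch 2 minus batch 1, was -2.30 ± 0.43 for HBEGF and -2.28 ± 0.29 for ERRFI1 on the log2 scale (SE; adjusted p = 1.5e-04 and 1.5e-06). Without D3 libraries 4 and 7, 6 of the 9 differed from monolayer to D3, where 48.4% of all genes did. TGFA and ERBB3 no longer differed there (limma adjusted p = 0.17 and 0.083). In the step after D3, HBEGF, EPGN, ERRFI1 and ERBB2 differed, where 23.8% of all genes did. From monolayer to untreated D11 all 9 differed, where 48.3% of all genes did. HBEGF had -4.22 ± 0.46 there, with a change of 0.01 in batch 1 alone and -4.21 in batch 2 alone. AREG had -2.20 ± 0.28, with -0.05 in batch 1 alone (adjusted p = 0.82) and -2.25 in batch 2 alone. ERBB3 had -0.56 ± 0.12, and its change was positive in both (2.31 and 1.75).

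**Figure D4:**
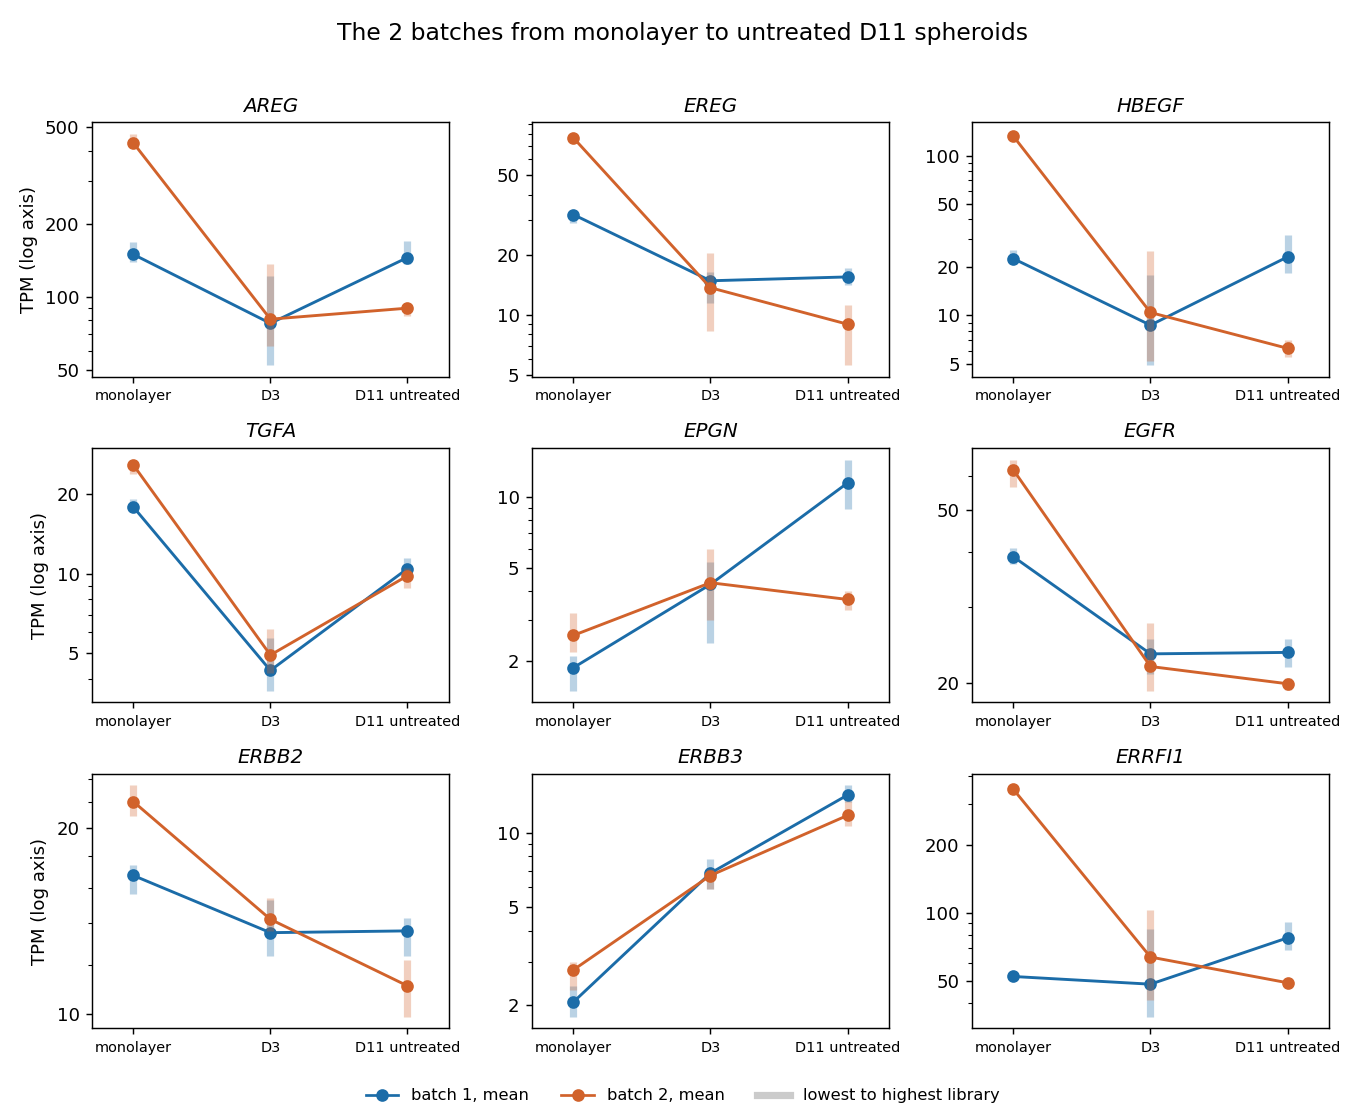
Mean TPM (log axis) of the 9 tested genes in monolayer, D3 and untreated D11 libraries, with batches 1 and 2 as separate lines and shaded bars from the lowest to the highest library. The lines of HBEGF and ERRFI1 start far apart and cross after D3, while those of TGFA and ERBB3 run close together.

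With IL-13, a type 2 cytokine of allergic inflammation, 2 of the 9 tested genes passed the test, where 47.6% of all genes did. ERBB3 rose, with 10.6 to 15.5 TPM untreated and 16.0 to 18.8 TPM with IL-13 and no overlap, as for 9.66% of all genes in this direction and 4.03% in the other. Its log2 change was 0.36 ± 0.09 (SE; limma adjusted p = 0.0014). The all-gene median rose by 0.19 in this comparison, and after median-of-ratios rescaling ERBB3 had 0.12 (adjusted p = 0.22). EGFR fell by 0.37 ± 0.13 (SE; adjusted p = 0.023), and 5 of the 6 IL-13 libraries lay below all untreated ones. After median-of-ratios rescaling it fell by 0.61 (adjusted p = 8.5e-05). The call was lost with mitochondrial genes removed (-0.40, adjusted p = 0.057) and without untreated library 1 (-0.33), untreated library 2 (-0.31) or IL-13 library 4 (-0.34).

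The other 7 tested genes did not pass with IL-13. TGFA had a log2 change of -0.20 (limma adjusted p = 0.093), and it fell after median-of-ratios rescaling (-0.43, adjusted p = 3.1e-04), as did ERBB2 (-0.29, adjusted p = 0.0029). ERRFI1 had -0.29 (adjusted p = 0.58), and -0.72 (adjusted p = 0.0023) in a fit of the 13 D11 libraries alone. Both the batch term and the spread of that fit leave out the monolayer. Mean ERRFI1 was 52.5 TPM in batch 1 and 350 TPM in batch 2 of the monolayer, but 77.7 and 49.3 TPM in untreated D11. The part of the shared batch term in the main IL-13 results was not tested. The fit of D11 libraries alone called 1 member higher and 3 lower, where 30.1% and 9.03% of all genes were. AREG had 0.22, EREG -0.28, EPGN 0.07 and ERBB2 -0.05. HBEGF had a mean of 14.3 TPM with IL-13 and 16.0 TPM untreated, while its fitted change, with 1 batch term shared by all groups, was 0.12. It was -0.04 without that term and -0.49 in the fit of D11 libraries alone. The ratio of summed ligands to EGFR was 10.3 ± 1.66 with IL-13 and 7.53 ± 1.58 untreated (SD, n = 6 and 7), as a description. Untreated, this ratio ran from 8.113 to 9.625 in batch 1 (n = 4) and from 5.508 to 6.181 in batch 2 (n = 3). By the labels 5 IL-13 libraries were in batch 1 and 1 in batch 2, and the part of batch in the difference was not tested.

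Genes that relay or restrain the receptor signal were described from lists drawn up beside the 10 genes. As shares of all tested genes, 12.7% rose and 68.2% fell on D3, and 33.6% and 35.8% from D3 to untreated D11. In untreated D11 against the monolayer 21% and 63.5% did, and with IL-13 39.2% and 8.49%. After median-of-ratios rescaling the shares were 33.2% and 33.1% on D3, 40.1% and 40.2% in untreated D11 against the monolayer, and 19.2% and 20.6% with IL-13. With mitochondrial genes removed, 13.6% rose and 65.7% fell from D3 to untreated D11. Among the other ligands and receptors, only NRG1, neuregulin, passed the filter of 6 genes listed. NRG1 ran from 0.9 to 1.2 TPM in the monolayer and from 0.2 to 0.4 TPM on D3, and it reached 1 TPM in the monolayer only. It passed the filter through the group where it was high, so its fall is given as values with no test. EGF itself was at 0 in all monolayer and D3 libraries, at 0.1 TPM in all untreated D11 libraries and at 0.1 to 0.3 TPM with IL-13. ERBB4 was at 0 in all 32 libraries.

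Of the sheddases and their partners, 8 of 9 were tested. On D3, ADAM15 rose by 0.54 and 5 fell, led by ADAM9 (-1.53) and RHBDF2 (-1.41), which encodes the iRhom that carries ADAM17 to the surface. Over all tested genes 12.7% rose and 68.2% fell there. ADAM17, singled out after its values were seen, went from 3.4 to 5.8 TPM in the monolayer to 2.1 to 2.8 TPM on D3. Between D3 and untreated D11, 4 rose and FRMD8 fell by 0.63, with -0.13 in batch 1 alone (adjusted p = 0.50). RHBDL2 had 0.44 and RHBDF2 0.31 there, the latter call lost on leaving out any 1 of 14 libraries, and with mitochondrial genes removed none of the 8 rose and 4 fell. In untreated D11 against the monolayer 2 rose and 6 fell, with ADAM15 at 0.70 and RHBDL2 at 0.40 (0.12 and -0.03 with mitochondrial genes removed, neither called), ADAM9 at -1.30 and RHBDF2 at -1.10. With IL-13, FRMD8, a partner of the iRhoms, rose by 0.84 (limma adjusted p = 6.8e-04), ADAM9 rose by 0.58 (adjusted p = 5.8e-06) and ADAM15 fell by 0.28 (adjusted p = 0.042). ADAM15 kept its call in 32 of 43 alternative fits, with adjusted p up to 0.116.

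Of the 16 adaptors and members of the RAS-ERK cascade, 13 fell and 2 rose on D3, with NRAS at -0.88, MAP2K1 at -0.83, SHC1 at 0.32 (0.17 in batch 2 alone, not called) and MAPK3 at 0.29 (0.04 in batch 1 alone, not called). Over all tested genes 68.2% fell and 12.7% rose there. After median-of-ratios rescaling 4 rose and 4 fell, where 33.2% and 33.1% of all genes did. From D3 to untreated D11, 10 rose and 1 fell, with MAPK3, which encodes ERK1, at 0.99 and HRAS at 0.69, whereas 2 rose and 8 fell with mitochondrial genes removed. Untreated D11 against the monolayer gave 3 that rose (MAPK3 at 1.27, and GAB1 at 0.53 but 0.13 with mitochondrial genes removed) and 9 that fell (PTPN11 at -0.63, and -0.07 after median-of-ratios rescaling), but 11 and 1 after median-of-ratios rescaling. With IL-13, GRB2 had 0.36, HRAS -0.30 and GAB1 -0.29, with 3 that rose and 2 that fell, and 2 and 6 after that rescaling. HRAS kept its call in 38 of 43 alternative fits, with -0.21 (adjusted p = 0.16) in the fit of D11 libraries alone, and GRB2 in 42 of 43, with 0.12 after quantile normalization.

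Genes of receptor ubiquitination and trafficking followed the scaling as well. All 10 fell on D3, where 68.2% of all genes fell, with the ubiquitin ligase CBL at -1.27 and HGS at -0.85. After median-of-ratios rescaling 3 fell and 2 rose, where 33.1% and 33.2% of all genes did. From D3 to untreated D11 7 rose, with EPN1 at 0.95 and HGS at 0.63, but 1 rose and 4 fell with mitochondrial genes removed. Against the monolayer, CBL in untreated D11 spheroids had -1.08, and RNF41 had -0.47 but 0.10 after median-of-ratios rescaling. EPN1 (0.44) and STAM (0.17) had -0.13 and -0.32 there with mitochondrial genes removed, and the STAM call was lost on leaving out any 1 of 4 libraries. With IL-13, CBLB had 0.34 (0.16 after quantile normalization, not called), RAB7A 0.25 (-0.000389 after quantile normalization) and CBL -0.29.

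The feedback inhibitors and the genes read as output of ERK had the lowest median changes of the lists on D3. Both lists hold SPRY2, SPRY4, DUSP4 and DUSP6, so their medians and counts are not independent of each other. On D3, 13 of 15 feedback inhibitors fell and none rose, where 68.2% of all genes fell and 12.7% rose. SPRED3 had -2.51 and the ERK phosphatase gene DUSP4 -2.39. After median-of-ratios rescaling 11 of the 15 fell and 3 rose, where 33.1% and 33.2% of all genes did. All 8 tested read-out genes of 10 fell on D3, also under each of the 3 other scalings, led by PHLDA1 (-2.97) and ETV5 (-2.68). The median change was -1.41 for the feedback inhibitors and -2.12 for the read-out genes, beside -0.44 over all genes. DUSP6, a phosphatase specific for ERK, went from 292.7 to 420.4 TPM in the monolayer to 57.9 to 140.8 TPM on D3.

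From D3 to untreated D11, 5 feedback inhibitors rose, DUSP5 (1.71), DUSP4 (1.57), SPRY4 (1.18), SPRY2 (1.11) and DUSP6 (0.66), and 2 fell, SOCS4 (-0.44, but -0.03 in batch 1 alone) and SPRED2 (-0.31). With mitochondrial genes removed 4 rose and 9 fell, where 13.6% and 65.7% of all genes did. Of the read-out genes 6 rose, among them the shared DUSP4, SPRY4, SPRY2 and DUSP6, where 33.6% of all genes did. CCND1, the cyclin D1 gene, fell by 1.95, where 35.8% of all genes fell. With mitochondrial genes removed the all-gene median was -0.51 in this comparison, and the rise of DUSP6 (0.66) was near that size. Against the monolayer, untreated D11 spheroids were still lower in 13 of 15 feedback inhibitors, led by SPRED3 (-2.83), and in 8 of 8 read-out genes, led by CCND1 (-2.91) and PHLDA1 (-2.28). Of all tested genes, 63.5% fell in that comparison. LRIG1, at 2.4 to 3.2 TPM in the monolayer and at most 0.5 TPM in every spheroid library, is one of those 13 here and on D3, and it passed the filter only through the monolayer, so its fall is no test. SPRY1 rose by 0.43 there, but had -0.02 with mitochondrial genes removed and -0.10 in batch 1 alone, and its call was lost on leaving out untreated D11 library 4, 6 or 7.

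With IL-13, 5 of the 15 feedback inhibitors fell and none rose, where 8.49% of all genes fell and 39.2% rose. DUSP4 went from 22.3 to 26.7 TPM untreated to 5.8 to 8.4 TPM with IL-13, DUSP6 from 91.6 to 193.7 TPM to 39.7 to 75.2 TPM, and SPRY4 from 21.9 to 32.1 TPM to 7.4 to 17.1 TPM, each without overlap. The log2 changes were -1.76 ± 0.16 for DUSP4 (SE; limma adjusted p = 3.3e-10), -1.20 for DUSP6 (adjusted p = 1.9e-05), -1.14 for SPRY4, -0.99 for DUSP5 and -0.85 for SPRY2. DUSP4 stayed between -1.997 and -1.371, and DUSP6 between -1.452 and -1.091, in all 43 alternative fits. Of the 8 read-out genes 4 of these same names fell (SPRY2, SPRY4, DUSP4 and DUSP6, which both lists hold) and CCND1 rose by 0.73 (adjusted p = 1.3e-04). The median change of the read-out genes was -0.58, beside 0.19 over all genes.

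**Figure D5:**
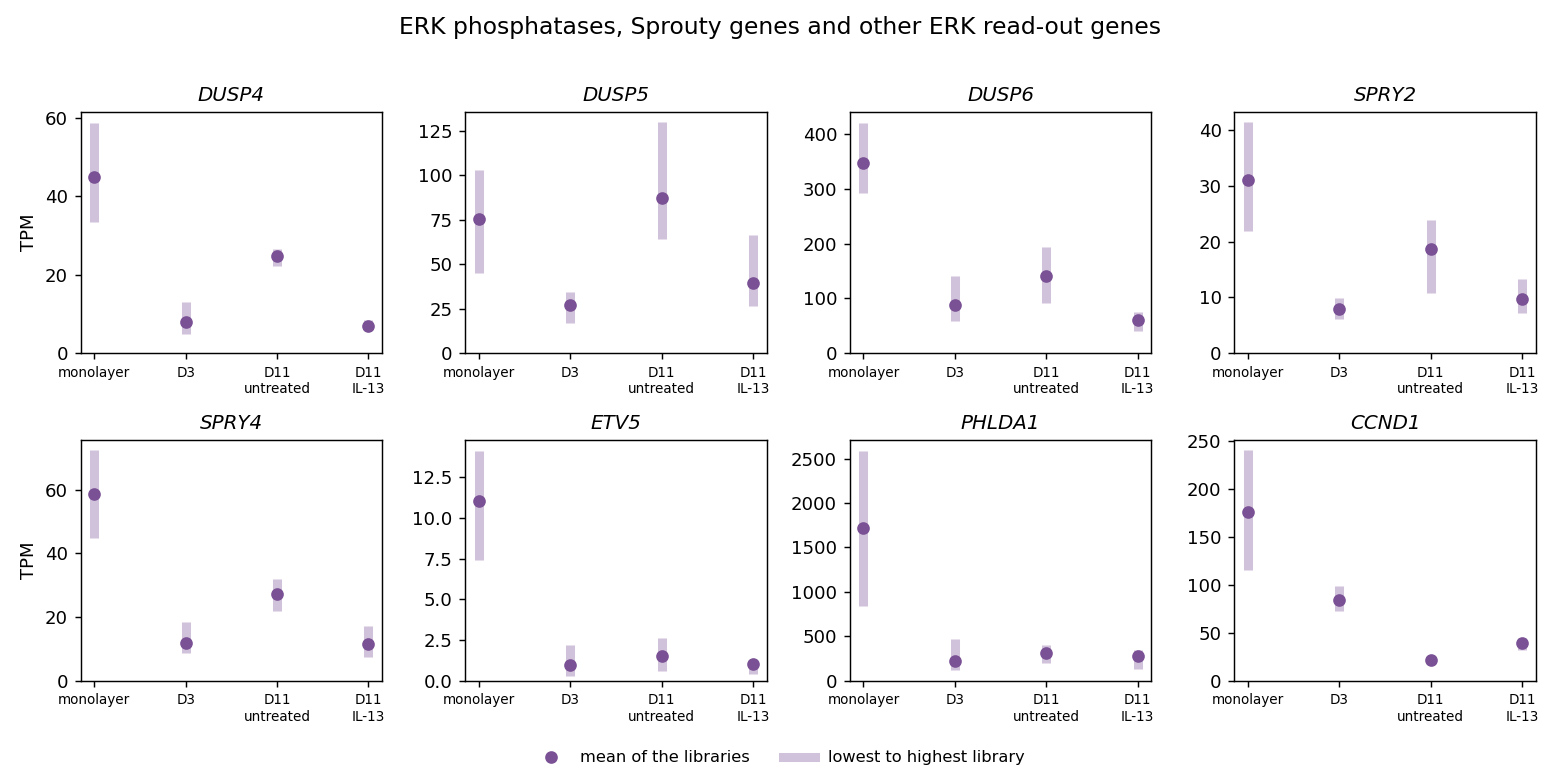
TPM of 8 feedback and read-out genes in the 4 groups, with the mean as a point and a bar from the lowest to the highest library. DUSP4, DUSP6 and SPRY4 are highest in the monolayer, and their IL-13 bars lie wholly below those of untreated D11 spheroids.

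The genes whose log2(TPM + 1) followed each member most closely over the 32 libraries were taken as a description, since these libraries share groups and batches. For AREG they were CSRNP2 (Pearson r = 0.98), ERN1 and ARHGEF2, and for HBEGF ARHGEF2 (0.99), AREG (0.97) and SLFN5. For EREG they were SLC38A1 (0.96), SLC1A4 and MAP1B, for TGFA G0S2 (0.98), PPFIBP1 and PTPN12, and for EPGN PPIL6 (0.93), ASAP3 and ETFDH. EGFR was followed by ADTRP (0.98), USP32 and VEZF1, ERBB2 by ARTN (0.95), TEP1 and SOCS2, and ERRFI1 by DGKA (0.95), NTN4 and MAST4. For ERBB3 they were TMPRSS4 (0.98), a gene listed only by an identifier, and GGT6. Among the members, EREG and EGFR had r = 0.95, EPGN and ERBB3 0.83, and EGFR and ERBB3 -0.84.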

How the data were processed

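The data were RNA sequencing libraries of EPC2 cells. The deposited table holds TPM values with 1 decimal, made by the authors. The build is hg38, per the submitters' processing notes, while no source used here names the aligner, quantifier or annotation. The members and gene lists were chosen with earlier results of these data known. All 32 columns were used. The IL-13 columns carried the batch 2 share of their group. A gene was kept if 6 libraries or more reached 1 TPM (12221 of 19345 genes), and fitted with limma 3.58.1 in R 4.3.3 on log2(TPM + 1), by group and batch, with trend, and p-values were Benjamini-Hochberg adjusted (0.05). The steps were tested on simulated data. Other scalings, filters, pseudocounts, batches alone, a replicate block, library weights and left-out libraries were tried. Text names all 10 members, and for each list and comparison the genes past the threshold that rose most (2) and fell most (2), with EGF, ERBB4 and NRG1 always, and the 3 genes with the highest Pearson r to each member. Other members of a count of 5 or fewer, and ADAM17, were named after their values were seen. TPM carries no depth, so intervals for counting error cannot be given. The labels do not say whether libraries of a group came from separate cultures, so p-values measure the spread between these samples, which may be technical. Gene positions are from GENCODE 29 and promoters from RefSeq (GRCh38.p14). One part of the culture protocol and some genes of the lists are not reported here.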

Additional observations from a re-analysis of the deposited data

Results flagged for a closer look

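With IL-13, library 1 was the lowest in HBEGF and in ERRFI1 by a wide gap. HBEGF had 3.6 TPM in it and 14.1 TPM in the next library, a gap of 0.677 of the range of the group. ERRFI1 had 25.7 TPM in it and 44.3 TPM in the next library, a gap of 0.769 of the range. Both gaps exceeded the critical value of Dixon's test for 6 samples. In all, 38 sets of libraries (a gene in a group) were examined and 2 stood out, where chance alone gives about 1 in 20. The test takes each set as 1 population, while each group holds both batches. The batch of this library is not known, and by the labels 1 of the 6 IL-13 libraries was in batch 2. In untreated D11, HBEGF had 18.4 to 31.7 TPM in batch 1 and 5.5 to 7.0 TPM in batch 2. ERRFI1 had 68.9 to 91.3 TPM and 46.9 to 51.9 TPM there. The part of batch in these gaps was not tested.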

How the results depend on the processing

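All values are log2 changes from limma, and the cause of each change in direction was not tested. In D3 spheroids against the monolayer, ERBB2 became 0.0646 after median-of-ratios rescaling and 0.02875 after quantile normalization, and the other 8 genes kept their direction in the alternatives run. In untreated D11 against D3 spheroids, EGFR became 0.04205 after median-of-ratios rescaling, 0.01137 in batch 1 alone, 0.44 with library quality weights (called), 0.002582 without D3 libraries 4 and 7 and 0.05826 without D3 libraries 4 and 5, the last chosen after seeing the data. There, EREG became 0.06923 in batch 1 alone and 0.98 with weights (called), and ERBB2 0.01226 and 0.15. ERRFI1 became -0.20 with mitochondrial genes removed and 1.98 with weights (called), and in batch 2 alone ERRFI1 had -0.30, HBEGF -0.45 and EPGN -0.17. In untreated D11 against the monolayer, ERRFI1 became 0.55 in batch 1 alone and 0.10 with weights, and HBEGF 0.008877 in batch 1 alone. With IL-13, AREG, HBEGF and EPGN became -0.03423, -0.12 and -0.15 after median-of-ratios rescaling, -0.08706, -0.50 and -0.18 with weights, and -0.07475, -0.49 and -0.23 in the fit of D11 libraries alone. HBEGF and EPGN became -0.07613 and -0.16 after quantile normalization, and HBEGF -0.03602 without a batch term.

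Leaving out each library in turn gave -0.0532 to 0.04038 for EGFR and -0.22 to 0.08281 for EREG in untreated D11 against D3. With IL-13 it gave -0.10 to 0.43 for HBEGF, -0.05302 to 0.29 for EPGN and -0.11 to 0.02236 for ERBB2. The number of members called was 2 to 4 in untreated D11 against D3 and 1 to 3 with IL-13, and 9 throughout in the other comparisons. That number with IL-13 was 1 with mitochondrial genes removed, 4 in the fit of D11 libraries alone and 4 with weights. The shares of all genes called in these 3 settings were 37.5%, 39.2% and 59.9%. In untreated D11 against D3 the number of members called was 8 with weights, all higher, where 38.6% of all genes were called higher (33.6% without weights). The number whose change from D3 to D11 differed between batches was 2 after median-of-ratios rescaling and 7 without D3 libraries 4 and 7, where 15.3% and 39.5% of all genes did. For the change from monolayer to D3 it was 6 without these 2 libraries, where 48.4% of all genes did.

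Among pathway genes in untreated D11 against the monolayer, RNF41 became 0.10 after median-of-ratios rescaling, 0.19 in batch 1 alone and 0.01949 with weights. SPRY1 became -0.10 in batch 1 alone, and with mitochondrial genes removed EPN1 became -0.13, RHBDL2 -0.02729, SPRY1 -0.02004 and STAM -0.32. RHBDF2 became -0.24 in untreated D11 against D3 with mitochondrial genes removed, and RAB7A -0.000389 with IL-13 after quantile normalization.

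The replicate numbers were not taken to pair the libraries. Of 23 same-numbered pairs 11 were in the same batch, 6 had a correlation of deviations over 0.1, and the correlations ran from -0.44 to 0.36. With the replicate block 9 members passed in D3 against the monolayer, 2 in untreated D11 against D3 and 6 in untreated D11 against the monolayer. The shares of all genes that passed there were 83.2%, 65.3% and 79.4%. The IL-13 columns carry no number of a labelled sample, so no paired fit was made there. The IL-13 fit rests on the batch share of the group, and TPM holds no depth, so precision at the low levels of BTC, EPGN and NRG1 is not known.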
